A study of Homo sapiens with 12 samples.

Results

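The genes described here are the ligands of NKG2D, an activating receptor of natural killer and T cells, and the genes of MHC class I, which present peptides to T cells and hold natural killer cells back. The 9 genes were chosen by name: MICA, MICB, ULBP1, ULBP2 and ULBP3 as ligands, and HLA-B, HLA-C, HLA-E and B2M as class I genes, out of 58735 genes in the count file. They were selected because MICA is among the genes raised by AG-205 in both cell lines, so that the AG-205 effect on MICA is given below as a description, without a test, and counts of genes that responded to AG-205 are over the other 8.

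The libraries came from HEC1A cells (HEC-1A in the study's text), a line of epithelial cells from an endometrial adenocarcinoma, and THESC cells (T-HESC), an endometrial stromal line of fibroblast-like cells immortalised with telomerase. AG-205, a small molecule sold as a ligand of the membrane protein PGRMC1, was present at 15 µM for 32 h in some cultures of each line, and its vehicle DMSO in the others, in medium with serum and without added progesterone. PolyA RNA was sequenced from 3 libraries in each of the 4 groups, taken from independent cell cultures, and 1 line stands for each cell type, so that line and cell type cannot be told apart. Total counts per library ranged from 7168542 to 15178276.

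NKG2D ligands are surface proteins that most healthy cells carry at low levels and that stressed, infected or transformed cells display, which marks them for natural killer cells. MICA and MICB are paralogs encoded inside the MHC and have the fold of a class I heavy chain without bound peptide, whereas the ULBP proteins lack the domain that lies next to the membrane in class I chains. HLA-B and HLA-C are classical class I heavy chains, HLA-E presents leader peptides of other class I chains to the inhibitory receptor NKG2A, and B2M is the light chain that every class I heavy chain needs to reach the surface; in the endometrium, uterine natural killer cells read these molecules.

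Of the 9 genes, 8 lie on chromosome 6 and B2M lies on chromosome 15. In GRCh38 with GENCODE 44, MICA (ENSG00000204520) spans chr6:31399784-31415315 and MICB (ENSG00000204516) chr6:31494881-31511124, both on the plus strand. HLA-B (ENSG00000234745) spans chr6:31353872-31367067 and HLA-C (ENSG00000204525) chr6:31268749-31272130, both on the minus strand, and HLA-E (ENSG00000204592) spans chr6:30489509-30494194 on the plus strand. ULBP2 (ENSG00000131015, chr6:149942014-149949235) and ULBP1 (ENSG00000111981, chr6:149963943-149973715) are on the plus strand, ULBP3 (ENSG00000131019, chr6:150061053-150069121) is on the minus strand, and B2M (ENSG00000166710) spans chr15:44711358-44718851 on the plus strand. All 9 are annotated as protein-coding.

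Windows of 250 bases before the RefSeq start were at hand for 8 of the 9 genes, all but HLA-E. GENCODE 44 holds transcripts that start earlier for MICA, MICB and HLA-B, so that the bases printed for these genes, and for B2M, lie inside the gene spans above. MICA and MICB, which have 82.7% identical bases in these windows (210 of 254 aligned columns), are shown because MICB was nearly absent from HEC1A and MICA was not. In the 30 bases of each printed here (GRCh38.p14, plus strand, chr6:31403449-31403478 for MICA and chr6:31497995-31498024 for MICB), the capitals mark GAANNTTC, the core letters of a heat shock element, searched on both strands.
MICA: ccagcccactgGAATTTTCtcttccaagcg
MICB: ccaggccgctaGAATTTTCtcttctgaacg
These letters begin 135 bases before the RefSeq start in MICA and 139 in MICB, occur in none of the other 6 windows, and occur in 5.78% of 35116 windows of the same length from the whole RefSeq table. HLA-B and HLA-C are shown because they were the class I chains that passed the test in HEC1A. Their windows have 89.0% identical bases, and in 30 bases of each (minus strand, chr6:31357231-31357260 for HLA-B and chr6:31272144-31272173 for HLA-C) the capitals mark CCAAT or its reverse complement, letters found in 32.0% of all windows.
HLA-B: ATTGGgtATTGGatatctagagaagCCAAT
HLA-C: cATTGGgtgtcgggttctagagaagCCAAT
B2M is shown for GAAANNGAA, core letters of an interferon response element, found in 6.88% of all windows and, among the 8, in B2M only (plus strand, chr15:44711366-44711395). The capitals cover 2 overlapping matches, which begin 144 and 138 bases before the RefSeq start.
B2M: actctaaGAAAAGGAAACTGAAaacgggaa
The letters TGACG, part of a cyclic AMP response element, were found in the windows of ULBP1, ULBP2, HLA-B, HLA-C and B2M and in 21.2% of all windows. CACCCCAC, core letters of a sterol regulatory element, were in none of the 8 and in 2.43% of all windows. A match is a description of the letters, and no match says only that these letters are not in this window.

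Levels are given as CPM, a gene's share of the counts of its library, after scaling with the TMM method across the 12 libraries. Differences are log2 fold changes from edgeR's quasi-likelihood test fitted to all genes with enough counts, with the standard error (SE) and with p adjusted by the Benjamini-Hochberg method over all genes tested. Calls needed an adjusted p under 0.05 and a size over 1 on the log2 scale in either direction. The libraries of a group varied more in THESC (biological coefficient of variation 33.6%) than in HEC1A (10.1%). THESC AG-205 replicate 1 stood apart: its counts differed from those of replicates 2 and 3 by a chi-square per degree of freedom of 160 and 207, against 64.5 between replicates 2 and 3. THESC DMSO replicate 3 differed from replicates 1 and 2 by 47.3 and 40.8, against 11.2 between these. HEC1A AG-205 replicate 3, with the lowest total count, differed from replicates 1 and 2 by 15.4 and 14.2, against 4.19. Without that HEC1A library, 2092 of 14461 genes were higher and 1922 lower at an adjusted p under 0.05 (edgeR, no fold limit). With it, 1038 and 605 of 14122 were.

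The lines matched their labels in cell type markers. EPCAM, an epithelial adhesion protein, had 2136 to 3208 counts in the HEC1A AG-205 libraries and 2722 to 3112 in those with DMSO, and at most 7 in any THESC library. The collagen gene COL1A1 had 15692 to 151364 counts in THESC libraries and 40 to 80 in HEC1A. KRT19, an epithelial keratin, was alike in the lines, at 100 CPM in HEC1A and 106 CPM in THESC with DMSO. Of 11 natural killer and leukocyte markers, KLRC1 (which encodes NKG2A) and NCR1 were at 0 counts in all 12 libraries, KLRK1, which encodes NKG2D itself, had at most 6, and the summed level of the list lay between 1.88 and 7.81 CPM. KLRD1, the partner chain of NKG2A, and PTPRC, the leukocyte surface protein CD45, were at 0 counts in HEC1A; in THESC, KLRD1 had 12 to 38 counts with DMSO and 15 to 31 with AG-205, and PTPRC 15 to 18 and 1 to 7 (log2 fold change -1.92, edgeR adjusted p = 0.664). CD74, the invariant chain of MHC class II, had 55 to 93 counts in HEC1A libraries and 1 to 19 in THESC. The part of these markers in the results was not tested. In bulk RNA, more cells that express a gene and more RNA per cell cannot be told apart.

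Every AG-205 library of both lines held more MICA than any DMSO library of its line. In HEC1A its level was 60.3, 57.6 and 63.2 CPM in the AG-205 libraries and 26.5, 26.2 and 27.5 CPM in the DMSO libraries. In THESC it was 152, 166 and 149 CPM with AG-205 and 62.6, 57.7 and 68.2 CPM with DMSO. The AG-205 and DMSO libraries did not overlap in either line, and the fitted log2 fold change was 1.18 (SE 0.0951, a 2.26-fold difference) in HEC1A and 1.30 (SE 0.198, 2.46-fold) in THESC. These are the values the genes were selected on. Per kb of exon, MICA was lowest in HEC1A with DMSO (6.94 ± 0.172 CPM per kb, SD, n = 3), followed by HEC1A with AG-205 (15.7 ± 0.738) and THESC with DMSO (16.3 ± 1.37), whose libraries overlapped, and was highest in THESC with AG-205 (40.4 ± 2.35).

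**Figure D1:**
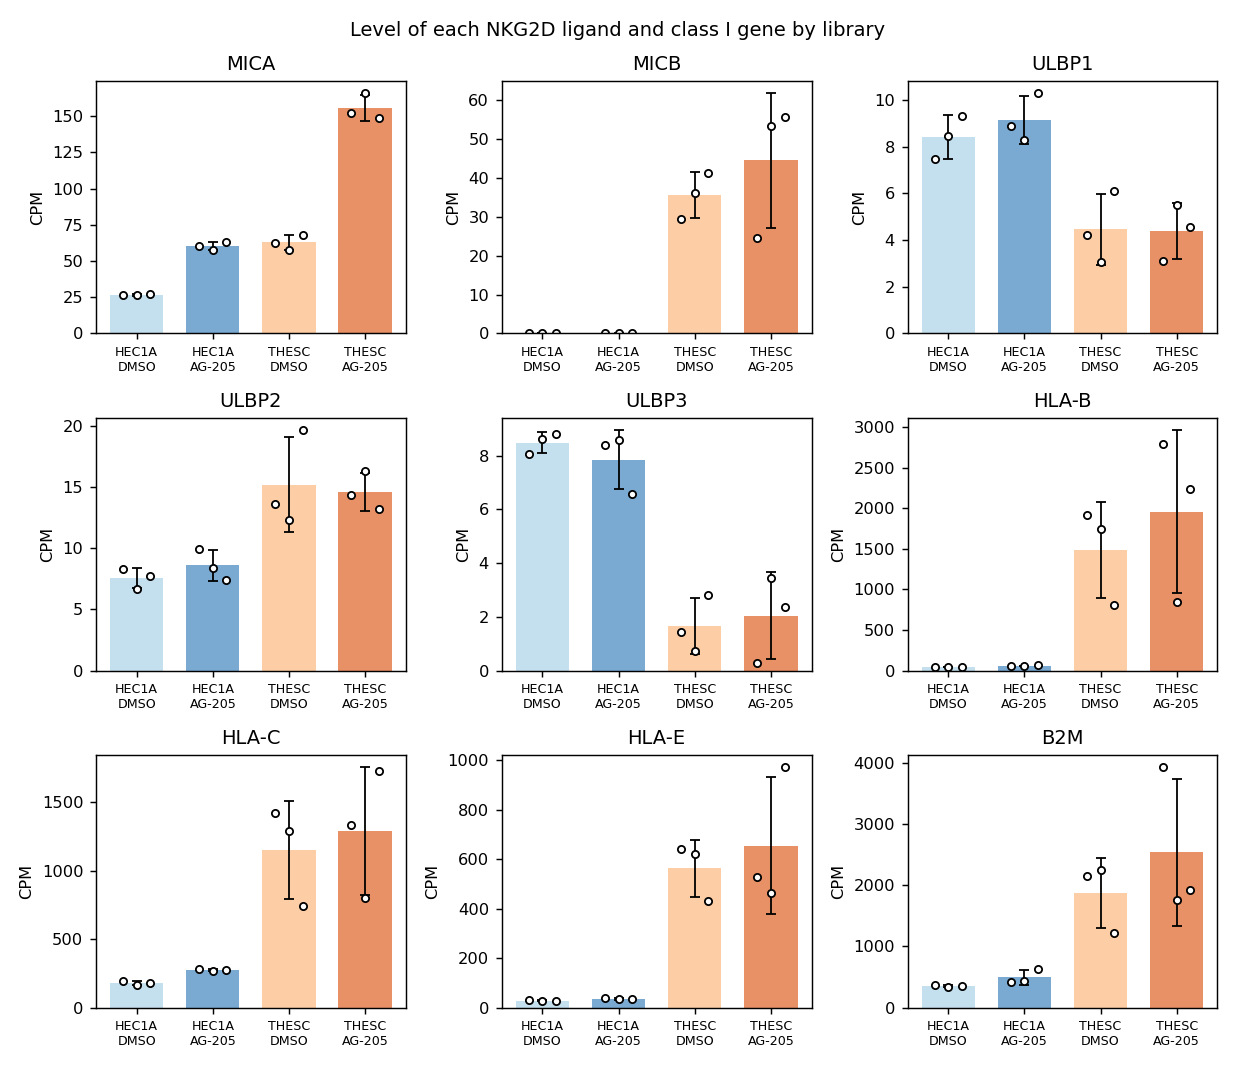
Level in CPM of each of the 9 genes in the 12 libraries, by line and treatment; points are libraries, bars the mean of 3 and error bars the SD, and each panel has its own linear axis from 0. The AG-205 points of MICA lie above all DMSO points in both lines, MICB is near 0 in HEC1A, and HLA-B ranges from 812 to 2796 CPM over the THESC libraries.

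MICB, the paralog of MICA, was expressed in THESC and nearly absent from HEC1A. In HEC1A it had 0, 2 and 0 counts with AG-205 and 1, 0 and 1 counts with DMSO, too few to be tested, in libraries where MICA had 306 to 883. In THESC it was at 24.5, 53.3 and 55.6 CPM with AG-205 and at 29.4, 36.1 and 41.2 CPM with DMSO. The groups overlapped in THESC, AG-205 replicate 1 was the lowest of the 6 libraries, and the log2 fold change was 0.30 (SE 0.327, 95% interval -0.45 to 1.06, adjusted p = 0.993, edgeR). Without that replicate it was 0.59 (adjusted p = 0.367). MICA and MICB share few stretches of sequence: 1.11% of the words of 50 bases in MICA transcripts occur in MICB.

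ULBP1, ULBP2 and ULBP3, ligands of the second family, overlapped between AG-205 and DMSO in both lines. ULBP1 was at 8.87, 8.28 and 10.3 CPM with AG-205 and 7.48, 8.45 and 9.34 CPM with DMSO in HEC1A, a log2 fold change of 0.11 (95% interval -0.22 to 0.44, adjusted p = 0.702, edgeR). In THESC it was at 3.11, 5.49 and 4.58 CPM with AG-205 and 4.22, 3.07 and 6.09 CPM with DMSO (-0.03, 95% interval -0.89 to 0.83, adjusted p = 0.994). The interval in HEC1A ends below a log2 fold change of 1 for ULBP1, as it does for the other 2 genes of this family.

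ULBP2 was at 9.97, 8.42 and 7.43 CPM with AG-205 and 8.31, 6.69 and 7.72 CPM with DMSO in HEC1A (log2 fold change 0.20, 95% interval -0.14 to 0.55, edgeR adjusted p = 0.459). In THESC the levels were 14.4, 16.3 and 13.2 CPM with AG-205 and 13.6, 12.3 and 19.7 CPM with DMSO (-0.07, 95% interval -0.66 to 0.53, adjusted p = 0.993). ULBP2 shares 29.7% of its words of 50 bases with RAET1L, a related ligand. RAET1L was at 0 counts in all libraries, so that reads of that stretch may have been left uncounted or assigned to ULBP2, but not to RAET1L. Together, the other ligands RAET1E, RAET1G and RAET1L had too few counts to be tested in either line.

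ULBP3 was at 8.40, 8.57 and 6.59 CPM with AG-205 and 8.06, 8.61 and 8.80 CPM with DMSO in HEC1A (log2 fold change -0.09, 95% interval -0.42 to 0.23, edgeR adjusted p = 0.745). It was the scarcest of the 5 ligands in THESC, with 3, 46 and 28 counts in the AG-205 libraries and 19, 9 and 28 counts in the DMSO libraries, and its interval there was correspondingly wide (0.30, 95% interval -1.53 to 2.14, adjusted p = 0.993).

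The share of MICA among the 5 ligands, summed as CPM per kb of exon, was 38.6 ± 0.808% (SD, n = 3) with DMSO and 57.0 ± 2.79% with AG-205 in HEC1A. In THESC it was 38.8 ± 3.25% with DMSO and 58.8 ± 6.07% with AG-205. The ratio of MICA to ULBP2, per kb, was 1.23 ± 0.126 with DMSO and 2.47 ± 0.437 with AG-205 in HEC1A, and 1.47 ± 0.233 and 3.70 ± 0.190 in THESC. Because MICA enters each of these shares and ratios, they restate the MICA values above beside the levels of its family. Their size also depends on the exon lengths used, such as 3.851 kb for MICA and 1.335 kb for ULBP2.

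The class I genes were higher with AG-205 in HEC1A, by less than MICA. Both HLA-B and HLA-C were about 1.5-fold higher, at 1.48-fold and 1.52-fold, and B2M was 1.41-fold higher; HLA-E, at 1.28-fold, did not pass the test. HLA-B was at 57.5, 55.7 and 63.1 CPM with AG-205 and 40.8, 38.3 and 39.7 CPM with DMSO (log2 fold change 0.57, SE 0.0954, adjusted p = 0.00233, edgeR). Every AG-205 library lay above every DMSO library.

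HLA-C was at 286, 266 and 277 CPM with AG-205 and 196, 168 and 181 CPM with DMSO, again without overlap (0.60 on the log2 scale, SE 0.0926, edgeR adjusted p = 0.00124). Their adjusted p stayed under 0.05 when any single HEC1A library was left out. In the fit of all 12 libraries, whose spread includes that of THESC, neither passed (adjusted p = 0.837 and 0.613, with log2 fold changes of 0.57 and 0.60).

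B2M was at 413, 433 and 635 CPM with AG-205 and 366, 341 and 348 CPM with DMSO (0.49 on the log2 scale, SE 0.146, edgeR adjusted p = 0.0478). AG-205 replicate 3 was the highest library, and without it the log2 fold change was 0.26 (adjusted p = 0.0109). Leaving out DMSO replicate 1, 2 or 3 took the adjusted p above 0.05, to 0.123, 0.165 and 0.169.

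HLA-E was at 39.9, 34.2 and 34.5 CPM with AG-205 and 31.3, 26.0 and 27.7 CPM with DMSO in HEC1A. The groups did not overlap, with a difference of 0.36 (SE 0.111) on the log2 scale that did not pass (edgeR adjusted p = 0.0576). It passed without AG-205 replicate 3 (adjusted p = 0.00457), with the replicate block (0.0476) and with library quality weights (0.00527).

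Counted together in HEC1A, 0 of the 7 other genes tested were called at both limits with edgeR, with DESeq2 or with limma, where 2.78% of 14122 genes were called in edgeR. At an unadjusted p under 0.05, 4 of 7 passed with each of these tools, as did 26.2% of all genes with edgeR, 21.6% with DESeq2 and 37.7% with limma. With an adjusted p under 0.05 and no fold limit, 3 of the 7 were higher (HLA-B, HLA-C and B2M) and 0 were lower; by that rule 7.35% of all genes tested were higher and 4.28% lower. In 4 of the 7, the AG-205 libraries all lay above the DMSO libraries, as in 16.4% of all genes tested. The median log2 fold change of the 4 class I genes was 0.53, and that of all genes tested was 0.0062.

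In THESC the class I genes varied widely between libraries of the same group, and the groups overlapped. HLA-B was at 2796, 849 and 2234 CPM with AG-205 and at 1912, 1743 and 812 CPM with DMSO (log2 fold change 0.39, 95% interval -0.77 to 1.54, adjusted p = 0.993, edgeR). AG-205 replicate 2 and DMSO replicate 3 were low, and the other 4 libraries were high. Without AG-205 replicate 1 the log2 fold change was 0.02 (adjusted p = 0.992), and with single libraries left out it ran up to 0.73.

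HLA-C was likewise lowest in those 2 libraries, with 1335, 804 and 1729 CPM with AG-205 and 1418, 1292 and 745 CPM with DMSO (log2 fold change 0.15, 95% interval -0.72 to 1.01, edgeR adjusted p = 0.993). HLA-E was at 529, 462 and 971 CPM with AG-205 and 640, 620 and 432 CPM with DMSO (0.20, 95% interval -0.59 to 0.98, adjusted p = 0.993). In both, AG-205 replicate 3 was the highest library and DMSO replicate 3 the lowest.

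B2M in THESC was at 3922, 1760 and 1920 CPM with AG-205 and 2150, 2252 and 1219 CPM with DMSO. AG-205 replicate 1 was the highest library (log2 fold change 0.43, 95% interval -0.52 to 1.38, edgeR adjusted p = 0.993), and without it the log2 fold change was -0.06 (adjusted p = 0.973). MICA was at 149 to 166 CPM over the same AG-205 libraries, values that the genes were selected on.

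Of the 8 genes other than MICA, 0 were called in THESC by edgeR, DESeq2 or limma, against 0.08% of 13753 genes in edgeR. At an unadjusted p under 0.05, 0 passed with edgeR and DESeq2, against 5.38% and 5.28% of all genes, and 2 (MICB and ULBP3) with limma, against 20.3%. In 0 of the 8 did all AG-205 libraries lie above the DMSO libraries, compared with 6.23% of all genes. The median log2 fold change of the 4 class I genes was 0.29, with intervals that include both 0 and the values found in HEC1A.

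**Figure D2:**
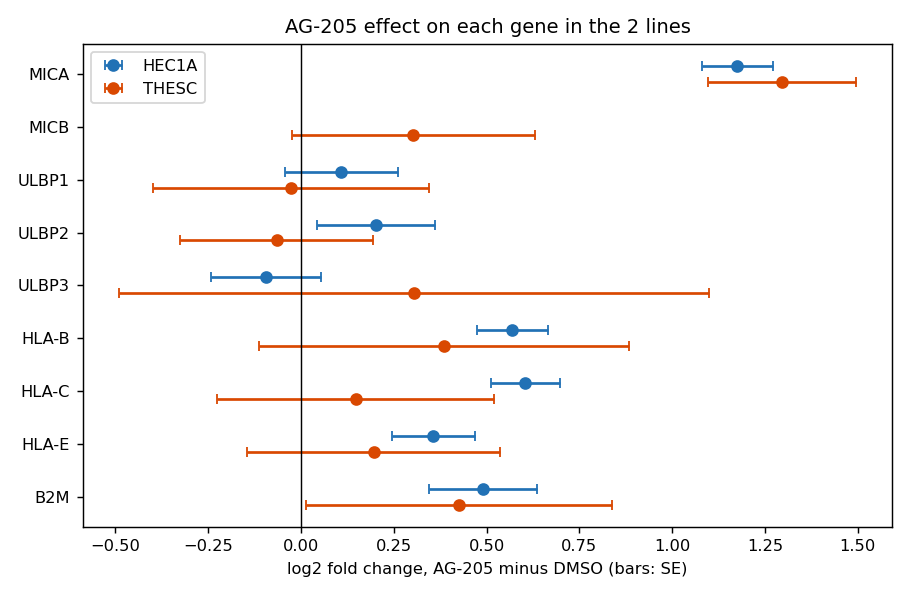
Log2 fold change of AG-205 minus DMSO for each gene in HEC1A and THESC, with the SE as bars; MICB has no value in HEC1A, where it had too few counts. MICA stands at 1.18 and 1.30 in the 2 lines, the 3 ULBP genes lie near 0 in HEC1A, and the class I genes lie between 0.36 and 0.60 in HEC1A with wider bars in THESC.

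The difference of the AG-205 effect between the lines was tested over 16132 genes in the fit of 12 libraries. It passed the adjusted p limit for 0 of the 8 genes with edgeR, DESeq2 or limma, and for 0.174% of all genes in edgeR. At an unadjusted p under 0.05, 0 passed with edgeR and DESeq2, where 6.35% and 6.41% of all genes did. With limma 4 passed, where 20.3% of all genes did. MICB, with at most 2 counts in HEC1A libraries, entered this fit only through THESC, so that its difference (0.35, SE 1.66) could not be judged. HLA-C had a difference of -0.44 (THESC minus HEC1A, 95% interval -1.29 to 0.41, adjusted p = 0.955), and that of HLA-B was -0.17 (95% interval -1.34 to 0.99). For MICA the effects differed by 0.13 (SE 0.184), given without a test.

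Genes that act on class I expression were read from lists, at an adjusted p under 0.05 with no fold limit, by which 7.35% of all genes in HEC1A were higher and 4.28% lower. Of 14 genes of peptide processing and loading tested in HEC1A, 2 rose and 1 fell. TAP1, a subunit of the transporter that brings peptides to class I chains, rose from 30.9 ± 2.67 to 46.8 ± 3.03 CPM (log2 fold change 0.60, adjusted p = 0.00267, edgeR). PSMB8, an immunoproteasome subunit, rose from 22.3 ± 1.64 to 32.8 ± 2.85 CPM (0.55, adjusted p = 0.00765), and ERAP1, which trims peptides in the endoplasmic reticulum, fell by 0.44 on the log2 scale (adjusted p = 0.0481). The adjusted p rose above 0.05 for PSMB8 without DMSO replicate 2 (0.0581) or 3 (0.0561), and for ERAP1 without any one of the DMSO libraries or AG-205 replicate 1 (adjusted p from 0.104 to 0.158).

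Of 10 transcription regulators of class I, 1 rose in HEC1A and 0 fell. NLRC5, the transactivator of class I genes, rose from 15.7 ± 2.11 to 43.2 ± 14.3 CPM (1.47 on the log2 scale, SE 0.207, edgeR adjusted p = 0.00071), and between 1.30 and 1.70 with any single library left out. In THESC it was at 60.7 ± 9.87 CPM with DMSO and 51.2 ± 28.7 CPM with AG-205 (-0.27, adjusted p = 0.993). The difference of these effects was -1.71 (95% interval -2.90 to -0.51), which did not pass after adjustment over all genes (edgeR adjusted p = 0.509). Among the HEC1A AG-205 libraries, NLRC5 was lowest in replicate 3 (27.0 CPM), where HLA-B and B2M were highest. Among those of THESC it was lowest in replicate 1 (20.2 CPM), where HLA-B and B2M were highest. It was highest there in replicate 3 (77.0 CPM), as HLA-C and HLA-E were. The part of NLRC5 in the class I levels was not tested.

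Of 10 interferon-stimulated genes, 8 could be tested in HEC1A, of which 2 rose and 0 fell. IFIT3 rose from 11.3 ± 0.943 to 26.3 ± 6.69 CPM (log2 fold change 1.21, adjusted p = 0.000726, edgeR) and IFIT1 from 5.50 ± 0.501 to 11.5 ± 4.88 CPM (1.02, adjusted p = 0.0216); without AG-205 replicate 3 IFIT1 was at 0.66 (adjusted p = 0.00238). Without DMSO replicate 1, 2 or 3 the adjusted p of IFIT1 was 0.0986, 0.0610 and 0.0716.

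Beside the class I genes stands the summed level of the interferon-stimulated list. In HEC1A it was 79.6, 81.5 and 127 CPM with AG-205 and 60.0, 58.5 and 56.4 CPM with DMSO, and AG-205 replicate 3, the highest, was also the highest in B2M and HLA-B, whereas HLA-C and HLA-E were highest in AG-205 replicate 1. In THESC it was 1383, 253 and 2253 CPM with AG-205 and 1141, 771 and 270 CPM with DMSO, and its lowest values, in AG-205 replicate 2 and DMSO replicate 3, were in the libraries where HLA-B was lowest. The order differed for the others: B2M in AG-205 replicate 3, where the list was highest, was below its level in DMSO replicates 1 and 2, and HLA-E in AG-205 replicate 1 was below those replicates too. The part of these genes in the class I levels was not tested. MICA was highest in HEC1A in AG-205 replicate 3 (63.2 CPM), where the list was highest too. In THESC it was highest in AG-205 replicate 2 (166 CPM), where the list was lowest.

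**Figure D3:**
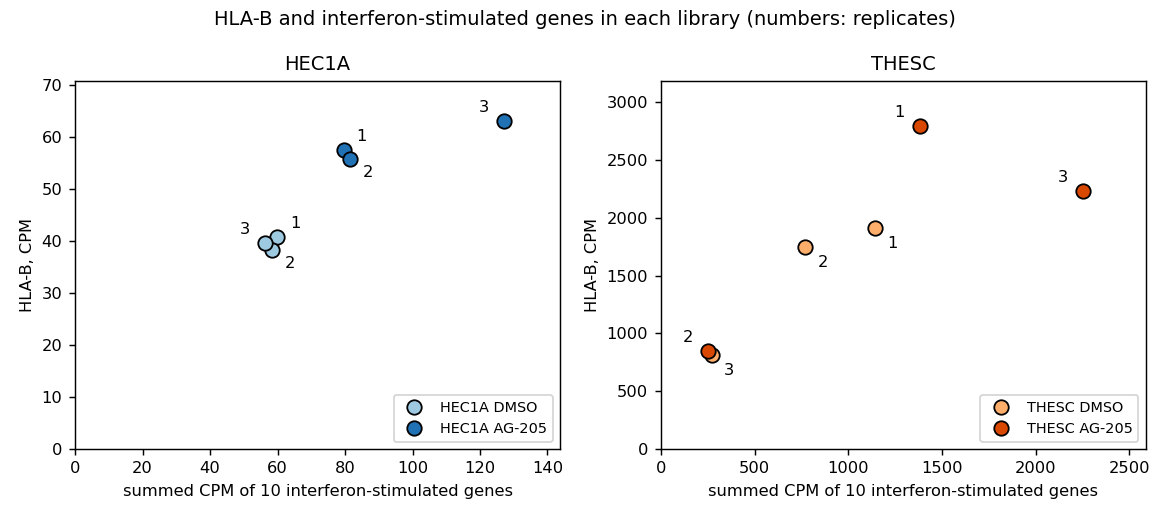
Level of HLA-B in CPM (vertical axis) against the summed CPM of 10 interferon-stimulated genes (horizontal axis) in each HEC1A (left) and THESC (right) library; numbers beside the points are replicates, and both axes start at 0. The 3 HEC1A AG-205 libraries lie above and to the right of the DMSO libraries, while in THESC replicate 2 of AG-205 lies beside replicate 3 of DMSO, at 849 and 812 CPM of HLA-B.

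Lists of genes linked to NKG2D ligands were read in HEC1A by the same rule, an adjusted p under 0.05 with no fold limit. Of 12 stress regulators of the ligands, 3 rose and 0 fell, beside the same 7.35% and 4.28% of all genes. HSPA1B, an inducible heat shock protein, rose from 63.6 ± 2.05 to 112 ± 20.6 CPM (log2 fold change 0.82, edgeR adjusted p = 0.000929), and shares most of its coding sequence with HSPA1A, which was at 10 to 108 counts. DDIT3, a factor of the endoplasmic reticulum stress response, rose from 29.0 ± 2.45 to 48.3 ± 2.98 CPM (0.74, adjusted p = 0.000748). DNAJB1, a heat shock co-chaperone, rose by 0.35 (adjusted p = 0.0419). Its adjusted p was above 0.05 when any single library other than AG-205 replicate 3 was left out (0.0618 to 0.162).

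Of 5 genes that shed NKG2D ligands from the surface, 0 rose and 1 fell in HEC1A, where 7.35% of all genes were higher and 4.28% lower. ADAM10, a membrane protease, fell from 362 ± 28.1 to 286 ± 13.9 CPM (log2 fold change -0.34, adjusted p = 0.0366, edgeR). Of 12 other ligands of natural killer cell receptors tested, 1 rose and 1 fell, beside the same shares of all genes. CD70, the ligand of CD27, rose from 4 to 8 counts with DMSO to 9 to 28 counts with AG-205 (1.78, adjusted p = 0.00902), and NECTIN2, which binds the activating receptor DNAM-1 and inhibitory receptors, fell by 0.41 on the log2 scale (adjusted p = 0.0135). The adjusted p rose above 0.05 for ADAM10 without AG-205 replicate 1 or 2 or DMSO replicate 2 or 3 (0.0588 to 0.196), for CD70 without DMSO replicate 1 or 3 (0.0549 and 0.0559), and for NECTIN2 without any 1 of the DMSO libraries or AG-205 replicate 2 (0.0637 to 0.0713). Of 2 other class I chains tested, 0 passed, and of the 6 epithelial markers 3 rose: CLDN4 (1.22), KRT19 (1.09) and KRT8 (0.48, with an adjusted p of 0.0586 and 0.0554 without DMSO replicate 2 or 3). In HEC1A, 3 of 6 stromal markers could be tested and 0 passed, and 1 natural killer and leukocyte marker was tested and did not pass. In the fit of all 12 libraries, whose spread includes that of THESC, CLDN4 and KRT19 passed and the other list genes named above as changed in HEC1A did not, with an adjusted p between 0.0643 for HSPA1B and 0.878 for TAP1, and of 0.170 for NLRC5.

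In THESC, 0 genes of these lists passed the adjusted p limit, which only 11 of all 13753 genes tested there passed with edgeR. DDIT3 was at 11.2 ± 2.59 CPM with DMSO and 29.4 ± 7.18 CPM with AG-205 there (log2 fold change 1.38, adjusted p = 0.312, edgeR). Among the other ligands of natural killer cell receptors, NCR3LG1 (2.04), ICAM1 (1.71) and CLEC2B (1.45) had larger log2 fold changes and did not pass either. The median log2 fold change of the 10 interferon-stimulated genes was 1.00, that of all genes tested being 0.022. These 10 genes ran from -0.80 to 1.33, and the groups overlapped for each of them. Their summed level ran from 253 to 2253 CPM among the AG-205 libraries alone.

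**Figure D4:**
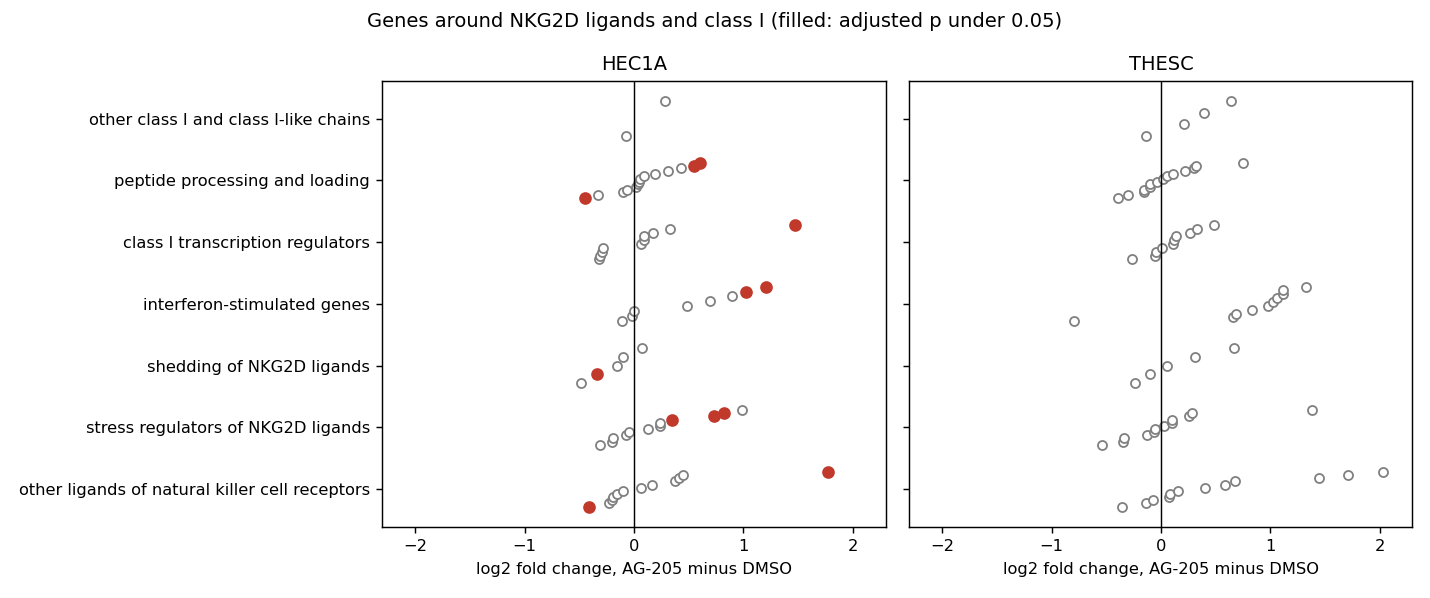
Log2 fold change of AG-205 minus DMSO for the genes of 7 lists in HEC1A (left) and THESC (right); each point is a gene with enough counts, spread vertically within its list, and filled points passed an adjusted p under 0.05. Filled points are on both sides of 0 in HEC1A, with NLRC5 at 1.47 and CD70 at 1.78. There are none in THESC, where only 11 of all 13753 genes tested passed.

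Without AG-205, 7 of the 9 genes were higher in THESC with DMSO than in HEC1A with DMSO and 2 were lower at an adjusted p under 0.05 with no fold limit, against 29.3% and 29.5% of 16132 genes. At both limits 7 were higher and 1 was lower, against 22.1% and 22.2%. MICB passed the filter on low counts only through THESC and had to differ, and without it 6 of the other 8 were higher and 2 lower with no fold limit. The groups did not overlap for any of the 9, as THESC lay above HEC1A in 37.1% of all genes and below it in 38.2%. The selection of the genes did not use this contrast.

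HLA-B was at 39.6 ± 1.27 CPM (SD, n = 3) in HEC1A and 1489 ± 593 CPM in THESC, a log2 difference of 5.23 (SE 0.452, adjusted p = 5.77e-07, edgeR). HLA-E was at 28.4 ± 2.73 and 564 ± 115 CPM (4.31, adjusted p = 6.49e-08). HLA-C (2.66, adjusted p = 5.57e-06) and B2M (2.41, adjusted p = 4.53e-05) differed less. The heavy chains were thus unequal in HEC1A. Per kb of exon, HLA-C stood at 8.47 ± 0.383 times HLA-B in HEC1A with DMSO. In THESC with DMSO, HLA-C stood at 1.48 ± 0.187 times HLA-B. These ratios depend on the exon lengths used, 4.623 kb for HLA-B and 2.507 kb for HLA-C. Of the HLA-B exon bases, 30.7% are shared with the pseudogene DHFRP2. In CPM, HLA-C was above HLA-B in HEC1A with DMSO (182 against 39.6). In THESC with DMSO, HLA-C was below HLA-B (1152 against 1489), so that the order there depended on exon length.

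At an adjusted p under 0.05 with no fold limit, by which 29.3% of all genes were higher in THESC and 29.5% lower, 8 of the 14 genes of peptide processing and loading were higher and 0 lower, with TAP1 at a log2 difference of 1.89 and PSMB10 at 1.89. Among 10 regulators, 3 were higher and 2 lower, with IRF1 at 2.81 and NLRC5 at 1.95. Of the interferon-stimulated genes that could be tested in each line alone, 7 of 8 were higher in THESC. Of other class I and class I-like chains, MR1 and FCGRT, the 2 that could be tested in each line, were higher, and HLA-F and HFE passed the filter only through THESC, with at most 7 and 5 counts in HEC1A. HLA genes and MICA vary between people and were counted on 1 reference sequence for both lines, and the part of this in the differences was not tested.

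Among the NKG2D ligands, MICB differed most between the lines: against a floor of 3 counts per HEC1A library, its mean of 35.6 CPM in THESC with DMSO was at least 141-fold higher, and with AG-205 at least 170-fold higher. These folds are of means and leave out the spread in THESC, 29.4 to 41.2 CPM with DMSO and 24.5 to 55.6 CPM with AG-205. MICA was 2.35-fold higher in THESC (log2 difference 1.23, SE 0.132, adjusted p = 4.30e-06, edgeR) and ULBP2 2.00-fold higher (1.00, SE 0.216, adjusted p = 0.00145), at the fold limit. ULBP3 was lower in THESC (-2.38, SE 0.574, adjusted p = 0.00317), and ULBP1 was lower by less than the fold limit (-0.92, SE 0.276, adjusted p = 0.0117).

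**Figure D5:**
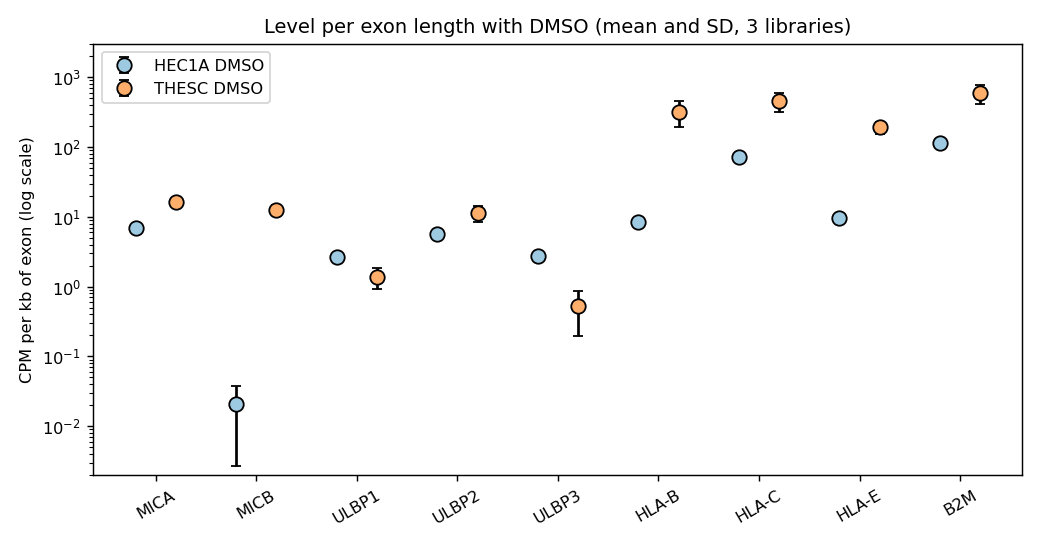
Level per kb of exon with DMSO in HEC1A and THESC, on a log axis, for the 9 genes; points are means of 3 libraries and bars the SD. The class I genes are higher in THESC, HLA-B at 322 against 8.56 CPM per kb, whereas ULBP1 and ULBP3 are lower; the MICB point in HEC1A rests on at most 1 count per library.

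Per kb of exon, the order of the ligands with DMSO in HEC1A was MICA (6.94 ± 0.172), ULBP2 (5.67 ± 0.611), ULBP3 (2.73 ± 0.123), ULBP1 (2.62 ± 0.289) and MICB at its floor; ULBP3 and ULBP1 lay within their spread. In THESC with DMSO it was MICA (16.3 ± 1.37), MICB (12.7 ± 2.11), ULBP2 (11.4 ± 2.93), ULBP1 (1.39 ± 0.476) and ULBP3 (0.533 ± 0.335), and MICB and ULBP2 lay within their spread. The place of ULBP2 in HEC1A depended on the exon lengths used, 1.335 kb for ULBP2, 3.211 kb for ULBP1 and 3.111 kb for ULBP3. In CPM with DMSO, ULBP2 (7.57 ± 0.816) was not above ULBP1 (8.42 ± 0.927) or ULBP3 (8.49 ± 0.384) there.

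The genes whose level over the 12 libraries was most like that of MICA, among 16131 others and by Pearson's r of log2(CPM + 1), were ELOVL5 (0.982), HSD17B14 (0.967), TIMM10B (0.967), SETDB2 (0.965) and RSPH3 (0.960). These points share 2 lines and 1 treatment, so that a gene that differs between lines and treatments as MICA does will rank high. Most like HLA-B were CCDC71L (0.998), MDK (0.997), CDC42EP5 (0.996), HLA-F (0.996) and NMI (0.996), an order set mainly by the difference between the lines. Within the 6 THESC libraries, r with HLA-B was 0.983 for HLA-F, another class I chain, and within the 6 HEC1A libraries, where HLA-F had at most 7 counts, it was 0.565.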

How the data were processed

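The authors used Trimmomatic 0.38 on the read pairs, mapped these to GRCh38 by HISAT2 2.1.0, counted them per gene with featureCounts (Subread 2.0.0) on Ensembl 94, and deposited raw counts without normalization for 58735 genes in 12 libraries, of which 23756 genes had no count. Whether counting used strand, and how multi-mapping reads were treated, is not given in the sources used here, so that HLA-B, which shares 27.9% of its words of 50 bases with the overlapping pseudogene DHFRP2 (at most 2 counts), carries that uncertainty. The members and gene lists were chosen with earlier results of these data known.

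Each line was fitted alone with edgeR 4.0.16 in R 4.3.3 (TMM, filterByExpr, quasi-likelihood test), and differences between lines in 1 fit of the 12 libraries; p-values were adjusted over all genes tested. Groups come from the sample labels. Exact permutation of 6 labels reaches p = 0.1 at the lowest, so models across genes were used. All 9 members are named; from each other list, genes with an adjusted p under 0.05 in the contrast described were eligible, at most 4 per list and line, with the largest change first. KLRC1, NCR1, KLRK1, KLRD1, PTPRC, CD74, RAET1L, HLA-F, HFE, and DDIT3, NCR3LG1, ICAM1 and CLEC2B in THESC were named after their values were seen. Exon lengths and positions came from GENCODE 44 and promoters from RefSeq. The 3 floor counts per library cover counting error only. Alternatives were DESeq2 1.42.0, RLE size factors, no filter, a mean of at least 1 CPM, the replicate block, no fold limit, 1 fit of all libraries, library quality weights (limma 3.58.1) and leaving out single libraries. The procedure was run on simulated data with changes larger than those of the class I genes in HEC1A, so that it does not show how well changes of their size are found. Python 3.11.15 and matplotlib 3.10.9 made the plots. Some genes related to these lists are not reported here and are in no count over a list.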

Additional observations from a re-analysis of the deposited data

How the results depend on the processing

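In HEC1A, 0 genes other than MICA were called at both limits under every alternative with a fold limit, and 3 without it. The 3 genes past an adjusted p under 0.05 became 0 in the fit of all 12 libraries, whose spread includes that of THESC, and 2 to 4 when single libraries were left out. With the replicate block 3 passed, HLA-E in place of B2M (adjusted p = 0.0548), and with a mean of at least 1 CPM B2M was at 0.0541. The labels do not say whether AG-205 and DMSO libraries with the same replicate number are pairs. Deviations from the group mean of same-numbered libraries correlated at -0.09, 0.29 and -0.00060 in HEC1A and 0.19, -0.53 and -0.02 in THESC. Not every library correlated best with its own number. The highest correlation was 0.70, between THESC AG-205 replicate 2 and DMSO replicate 3, the libraries low in HLA-B. With 3 libraries per group, these correlations cannot decide whether the numbers mark pairs. The block left 0 calls in THESC and moved the baseline count from 8 to 7; that count ran from 7 to 9 over the alternatives. In THESC, directions were unstable. With library quality weights the log2 fold change was -0.63 for HLA-B, -0.43 for HLA-C, -0.21 for HLA-E, -0.18 for B2M, 0.47 for ULBP1 and 0.19 for ULBP2, and the line difference for ULBP1 was 0.47. Leaving out single libraries gave log2 fold changes in THESC of -0.25 to 0.25 for ULBP1, -0.19 to 0.15 for ULBP2, -0.34 to 0.88 for ULBP3, 0.019 to 0.73 for HLA-B, -0.12 to 0.38 for HLA-C, -0.20 to 0.38 for HLA-E and -0.056 to 0.61 for B2M. The line differences then ran from -0.33 to 0.16 for ULBP1, -0.18 to 1.03 for ULBP3, -0.52 to 0.17 for HLA-B, -0.54 to 0.046 for HLA-E and -0.51 to 0.17 for B2M. The cause was not tested. HEC1A directions held for the 8 members tested under all alternatives.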
